A study of Mus musculus with 6 samples.

Results

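The genes followed here are 10 genes that fat cells express, measured in whole pieces of mouse colon: Adipoq, Lep, Retn, Cfd, Plin1, Plin4, Cidec, Fabp4, Lpl and Car3. They were chosen by name, as adipokine and lipid droplet genes that can report fat attached to the gut wall. The choice was made with earlier results of these data known. All 10 were among the 24517 genes of the count tables. RNA was sequenced in 3 libraries from Nsd2fl/fl mice and 3 from Nsd2ΔIE mice. All mice had the floxed Nsd2 allele and were fed a high-fat, high-cholesterol diet (HFCD). In Nsd2ΔIE mice, Villin-Cre, which is active in gut epithelial cells, deletes Nsd2, a histone methyltransferase gene. Fat, muscle and vessels of the colon wall keep the gene. The diet lasted 16 weeks per the labels and 18 weeks per the study's methods, which describe male littermates on a C57BL/6J background aged 7 to 8 weeks at the start. The labels give no age, no position along the colon and no statement on whether attached fat was removed.

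White adipocytes store triglyceride in 1 large droplet coated by perilipins and CIDE proteins, and they take up fatty acids that lipoprotein lipase releases from circulating lipoproteins. They also secrete adipokines such as adiponectin and leptin. The colon carries such fat cells in the mesentery and along its outer surface, while fatty acid and droplet genes are also used by macrophages, endothelium, muscle and epithelium, so the members are not equally specific.

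Libraries held 38041832 to 38604680 counts, so depth was nearly equal, and a count of 0 allows up to 3 counts, or 0.0723 to 0.0848 CPM (reads of a gene per fixed number of library reads, with TMM factors), for counting error only. Nsd2 itself had 47.8, 59.1 and 68.9 CPM in Nsd2fl/fl replicates 1 to 3 and 24.5, 23.1 and 27.5 CPM in Nsd2ΔIE replicates 1 to 3, without overlap. The libraries also differed in sex-linked RNA. Xist had 0 to 4 counts in the Nsd2fl/fl libraries and 21217 to 24234 in the Nsd2ΔIE libraries, and 4 Y-linked genes together had 5058 to 6110 and 0 to 1 counts. That pattern is of male and female tissue, goes against the description as male, and cannot be told apart from genotype in any result given here. The distal colon gene Hoxb13 had 365, 0.706 and 340 CPM in Nsd2fl/fl and 310, 4.97 and 26.2 CPM in Nsd2ΔIE replicates 1 to 3, so the pieces stand apart within both groups. The labels do not state that each library is a separate animal, and p-values measure the spread between these libraries.

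Most of the adipocyte genes were higher in the Nsd2ΔIE libraries, with large differences among libraries of 1 genotype. Together the 10 genes had 38.1, 50.5 and 47.1 CPM in Nsd2fl/fl replicates 1 to 3 and 70.6, 113 and 174 CPM in Nsd2ΔIE replicates 1 to 3. The lowest Nsd2ΔIE library lay above the highest Nsd2fl/fl library, replicate 2. In that replicate Cidec, Lpl and Fabp4 had 18.6, 16.1 and 11.4 CPM, while Adipoq, Lep, Retn and Plin1 had no read. The sum is therefore no measure of fat alone. For 6 of the 10 genes (Adipoq, Retn, Cfd, Plin4, Fabp4 and Car3) every Nsd2ΔIE library was above every Nsd2fl/fl library, against 11.4% of all genes tested. As these are bulk samples, more adipocytes in a piece, more RNA per adipocyte and RNA from other cells cannot be told apart.

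**Figure D1:**
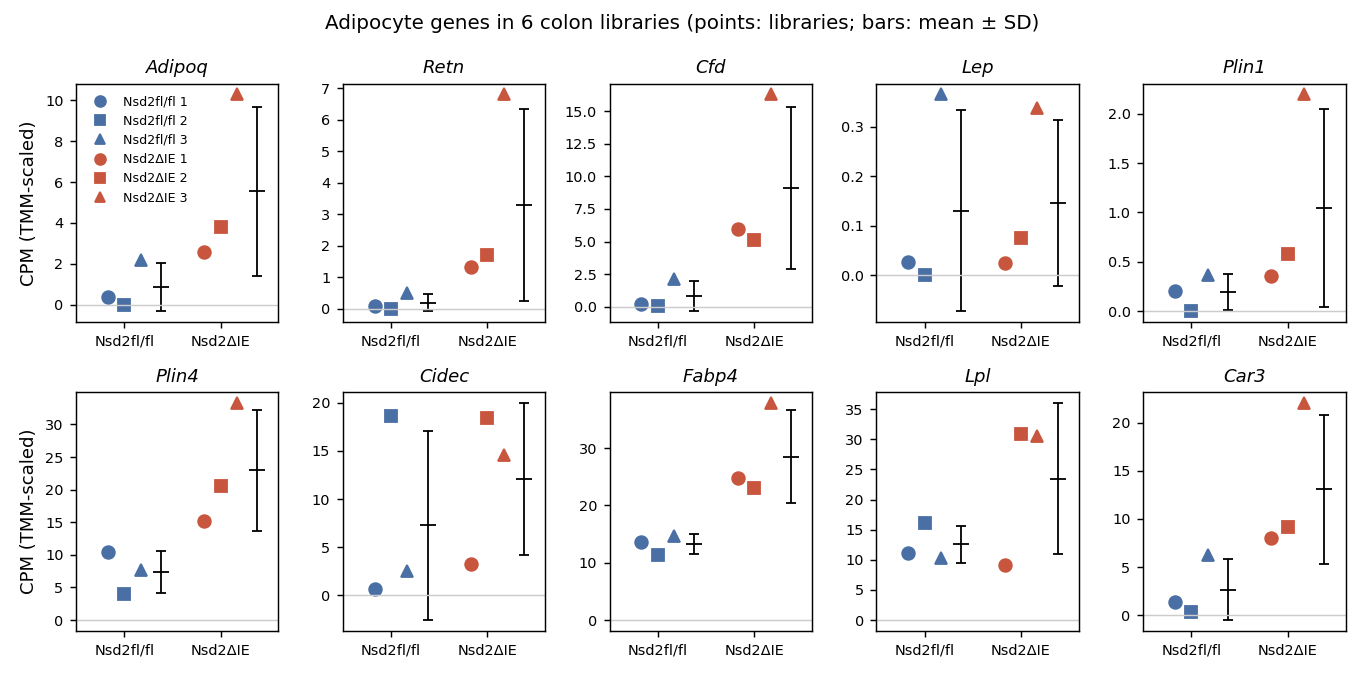
CPM of the 10 adipocyte genes in each of the 6 libraries, with 1 panel per gene. Points are libraries, the line is the group mean and the bar its SD (n = 3 a group). Adipoq, Retn, Cfd, Plin4, Fabp4 and Car3 do not overlap between the groups, while Cidec is highest in Nsd2fl/fl replicate 2 and Lpl lowest in Nsd2ΔIE replicate 1.

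Adipoq encodes adiponectin, a hormone made almost only by adipocytes. It was read 14, 0 and 78 times in Nsd2fl/fl replicates 1 to 3 and 102, 150 and 427 times in Nsd2ΔIE replicates 1 to 3. In CPM this was 0.851 ± 1.17 against 5.55 ± 4.15 (SD, n = 3 each). The groups do not overlap, but narrowly: the lowest Nsd2ΔIE library stood 1.17 times above Nsd2fl/fl replicate 3. The edgeR fit over all genes put Adipoq at 2.70 on the log2 scale (SE 1.246), and the adjusted p was 0.486.

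Retn, which encodes the adipokine resistin, was read 3, 0 and 18 times in Nsd2fl/fl replicates 1 to 3, against 53, 68 and 282 times in Nsd2ΔIE. The groups were apart by a wider margin than for Adipoq, with a factor of 2.65 between the nearest libraries. Its log2 fold change of 4.06 (SE 1.20) was the largest of the members in this fit, with an edgeR adjusted p of 0.321, whereas Cfd was larger on both log2 FPKM scales and with the first principal component split as a covariate. Cfd encodes complement factor D (adipsin), a protease of the alternative complement pathway that fat cells secrete. It had 9, 2 and 76 counts in Nsd2fl/fl and 236, 202 and 675 in Nsd2ΔIE. No library of either group entered the range of the other, and the fitted log2 fold change reached 3.49 (SE 1.13, edgeR adjusted p = 0.354). Lep, the gene for leptin, was close to the detection limit in every library, at 1, 0 and 13 counts in Nsd2fl/fl and 1, 3 and 14 in Nsd2ΔIE. It did not pass the filter on low counts and was not tested. The libraries with 13 and 14 counts, replicate 3 of either group, were also the ones with the most Adipoq in their group.

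Plin1 encodes the perilipin that coats the adipocyte droplet and gates lipolysis. In Nsd2fl/fl it had 8, 0 and 13 counts, and in Nsd2ΔIE 14, 23 and 91. The groups overlap in CPM, since Nsd2fl/fl replicate 3 (0.365) was just above Nsd2ΔIE replicate 1 (0.353), and the log2 fold change was 2.43 (SE 1.098, edgeR adjusted p = 0.478). Plin4 encodes a perilipin of nascent droplets that heart and skeletal muscle also express. It had 10.47, 4.04 and 7.67 CPM in Nsd2fl/fl and 15.2, 20.5 and 33.3 CPM in Nsd2ΔIE. The groups were apart by a factor of 1.45 at their nearest, and the fit gave 1.64 on the log2 scale (SE 0.42, edgeR adjusted p = 0.303).

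Cidec, whose product fuses droplets into the single large one of white fat, followed another order. It had 0.675, 18.6 and 2.53 CPM in Nsd2fl/fl and 3.25, 18.4 and 14.5 CPM in Nsd2ΔIE. The highest of the 6 values was therefore in Nsd2fl/fl replicate 2, a library with no read of Adipoq, Lep, Retn or Plin1. Its log2 fold change of 0.73 (SE 1.14) was smaller than its error (edgeR adjusted p = 0.833). Without Nsd2fl/fl replicate 2 the log2 fold change was 2.93, and without Nsd2fl/fl replicate 1 it was 0.19.

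The DNA just before the start sites of Adipoq, Plin1 and Cidec is shown because Adipoq and Plin1 are the most adipocyte-restricted members of their classes and Cidec is the member that went its own way. RefSeq promoter sequences (GRCm38.p6) matched 7 of the 10 genes. Lep, Retn, Cfd and Plin4 were matched but are not printed. The 250 bases before the start are given on the gene's strand, 5′ to 3′. Capitals mark matches on either strand to any of 4 motifs: the TATA box TATAAA, the CCAAT box CCAAT, the nuclear receptor hexamer AGGTCA and the C/EBP core TTGCNNAA, which do not share letters in these windows.
Adipoq, chr16:23146286-23146535, plus strand: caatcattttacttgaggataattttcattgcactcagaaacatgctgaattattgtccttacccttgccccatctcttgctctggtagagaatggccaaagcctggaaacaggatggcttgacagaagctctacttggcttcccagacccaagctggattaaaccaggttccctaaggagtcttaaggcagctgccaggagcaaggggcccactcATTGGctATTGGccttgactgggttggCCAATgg
Plin1, chr7:79732777-79733026, minus strand: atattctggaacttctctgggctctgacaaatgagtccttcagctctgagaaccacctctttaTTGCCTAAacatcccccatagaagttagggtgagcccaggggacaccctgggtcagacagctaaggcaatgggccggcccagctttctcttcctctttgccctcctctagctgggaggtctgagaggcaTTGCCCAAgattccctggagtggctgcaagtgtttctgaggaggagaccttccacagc
Cidec, downstream start, chr6:113434765-113435014, minus strand: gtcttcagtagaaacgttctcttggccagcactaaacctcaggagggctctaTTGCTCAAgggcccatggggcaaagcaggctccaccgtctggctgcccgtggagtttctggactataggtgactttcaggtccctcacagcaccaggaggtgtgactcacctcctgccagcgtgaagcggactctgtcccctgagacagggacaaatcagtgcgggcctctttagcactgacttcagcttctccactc
Cidec, upstream start, chr6:113435761-113436010, minus strand: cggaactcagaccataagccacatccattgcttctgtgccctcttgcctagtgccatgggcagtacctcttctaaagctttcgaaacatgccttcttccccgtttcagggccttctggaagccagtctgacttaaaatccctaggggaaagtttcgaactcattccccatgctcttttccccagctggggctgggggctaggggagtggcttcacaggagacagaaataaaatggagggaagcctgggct

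Among all 32851 RefSeq promoter windows, each of 250 bases, 12.37% hold the TATA box, 33.9% the CCAAT box, 14.0% the nuclear receptor hexamer and 9.56% the C/EBP core. The Adipoq window holds 3 CCAAT boxes, 34, 27 and 7 bases before the start, of which the first 2 lie on the other strand. The Plin1 window holds 2 C/EBP cores, 187 and 58 bases before the start. The annotated Plin1 gene reaches up to base 79732904, so the start used here lies inside it. The part of the window next to this start, with the core at 58 bases, therefore also lies within the gene. Of the Cidec windows, whose starts lie 996 bases apart, the downstream one holds 1 C/EBP core and the upstream one no match. A gene count adds transcripts from both Cidec starts and cannot say which was used. A match is a description of letters and not a site of binding.

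Fabp4, the fatty acid binding protein of adipocytes that macrophages and capillary endothelium also make, was the most evenly measured member. It had 13.6, 11.4 and 14.7 CPM in Nsd2fl/fl and 24.8, 23.0 and 37.8 CPM in Nsd2ΔIE, or 13.2 ± 1.70 against 28.5 ± 8.10 (SD, n = 3 each). The groups were apart by a factor of 1.56 at their nearest, and the log2 fold change was 1.11 (SE 0.22, edgeR adjusted p = 0.302). Lpl encodes lipoprotein lipase, which muscle and macrophages make too. It had 11.2, 16.1 and 10.4 CPM in Nsd2fl/fl and 9.06, 30.9 and 30.5 CPM in Nsd2ΔIE. Nsd2ΔIE replicate 1 was the lowest of all 6 libraries, the other 2 Nsd2ΔIE libraries the highest, and the log2 fold change was 0.91 (SE 0.46, edgeR adjusted p = 0.525). Car3 encodes a cytosolic carbonic anhydrase abundant in fat and in slow skeletal muscle. In Nsd2fl/fl it had 53, 12 and 223 counts, and in Nsd2ΔIE 319, 364 and 914. It kept the library order of Adipoq and did not overlap between the groups (log2 fold change 2.30, SE 0.95, edgeR adjusted p = 0.441).

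No member passed an adjusted p under 0.05 in edgeR, where 0.0306% of all genes did. Those were 5 genes, Xist and the 4 Y-linked genes. The deleted gene Nsd2 did not pass either (edgeR adjusted p = 0.302). At an unadjusted p under 0.05 with a log2 fold change over 0.32, the threshold the study used, 5 of the 9 members tested were higher in Nsd2ΔIE (Retn, Cfd, Plin4, Fabp4 and Car3), against 8.05% of all genes tested. None was lower, against 2.21% of all genes. DESeq2 gave an adjusted p under 0.05 for 3 members, Retn (0.0113), Plin4 (0.00763) and Fabp4 (0.00240), all higher in Nsd2ΔIE, against 2.47% of genes higher by that tool. Several members passed the low-count filter mainly through the Nsd2ΔIE libraries, and the members were chosen with earlier results known. These counts therefore describe the members tested and are no support by themselves. The median log2 fold change over the 9 was 2.30, beside −0.04 over all genes tested.

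**Figure D2:**
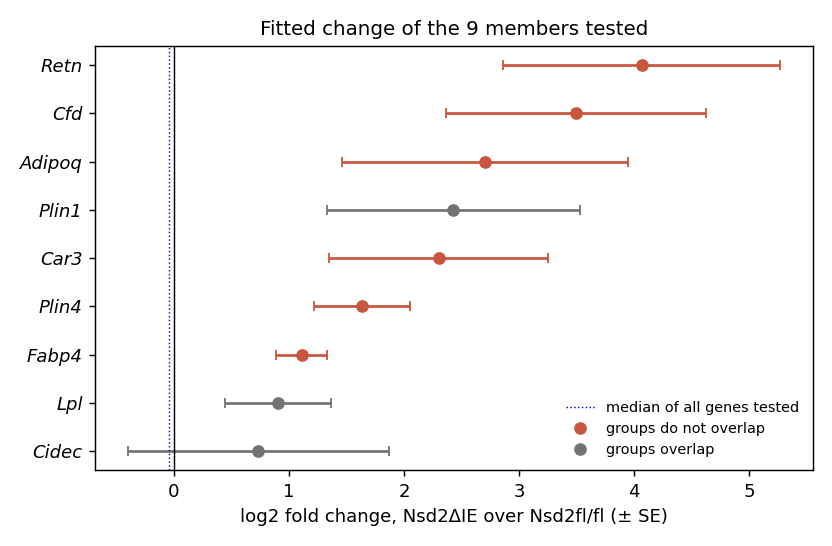
Log2 fold change of each tested member (Nsd2ΔIE over Nsd2fl/fl) in the edgeR fit, as points with a bar of 1 SE on each side (n = 3 libraries a group). Colour marks members whose groups do not overlap, and the dotted line is the median of all genes tested. All 9 points lie above 0, from 0.73 for Cidec, whose bar crosses 0, to 4.06 for Retn.

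The group means were carried unequally. Nsd2ΔIE replicate 3 was the highest library for 7 of the 10 members and held 66.5% of all Retn counts, 61.1% of Plin1 and 55.4% of Adipoq, but only 31.9% of Fabp4. Nsd2fl/fl replicate 2 was the lowest for 8 members. Between Nsd2ΔIE replicates 3 and 1 the CPM differed by a factor of 6.21 for Plin1, 5.08 for Retn and 2.74 for Car3, and by 1.53 for Fabp4. Without Nsd2ΔIE replicate 3 the median log2 fold change was 1.27, and 2 members (Plin4 and Fabp4) were higher at the threshold of the study in place of 5, while the share over all genes was 4.06% in place of 8.05%. Without Nsd2fl/fl replicate 1 there were 3 members (Retn, Plin4 and Fabp4), against 10.3% of all genes. When 1 library was left out, the log2 fold change ranged from 1.90 to 4.87 for Adipoq, 2.96 to 6.24 for Retn, 2.77 to 5.92 for Cfd, 1.70 to 3.91 for Car3 and 1.27 to 3.25 for Plin1, lowest without Nsd2ΔIE replicate 3 and highest without Nsd2fl/fl replicate 3 for each of these 5 genes.

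Levels were compared between members in FPKM, the deposited unit that divides by gene length. Fabp4 was the highest member in every library, from 11.8 to 45.8 FPKM. Lep was the lowest or tied at 0 in all 6. Cfd, Cidec, Car3 and Lpl had means of 5.64, 5.53, 5.32 and 4.52 FPKM over the 6 libraries and spanned 0.0566 to 19.1, 0.389 to 10.8, 0.204 to 15.5 and 2.30 to 8.13 FPKM, so their order is not resolved. Adipoq (2.71), Plin4 (2.23), Retn (1.43) and Plin1 (0.313) had lower means. The order of Adipoq and Plin4 is not resolved either, since Plin4 was above Adipoq in Nsd2fl/fl replicates 1 and 2 and in Nsd2ΔIE replicate 1.

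The make-up of the member signal differed among libraries. Fabp4 made up 70.9, 45.3 and 54.3% of the summed FPKM of the 10 genes in Nsd2fl/fl replicates 1 to 3 and 56.7, 40.9 and 38.7% in Nsd2ΔIE replicates 1 to 3. For Adipoq the shares were 1.38, 0 and 5.84% and then 4.26, 4.87 and 7.61%, so both genes overlapped between the groups on this scale. In the 4 libraries with the most Adipoq, the FPKM of Car3 was 1.72 to 2.51 times that of Adipoq and the FPKM of Plin1 was 0.0819 to 0.127 times. Fabp4 was 5.08 to 13.3 times Adipoq in those 4 libraries and 51.5 times in Nsd2fl/fl replicate 1. In Nsd2fl/fl replicate 2, with 0 counts of Adipoq, Fabp4 still had 403 counts, Lpl 570 and Plin4 143. These 3 genes therefore had RNA in a piece where Adipoq was not detected at this depth.

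Cidec and Lpl overlapped between the genotypes but not between libraries low and high in Hoxb13, a gene whose level falls from distal to proximal colon. Position was not stated, and its part in these results was not tested. The first principal component of all genes (51.0% of the variance) set Nsd2fl/fl replicate 2 and Nsd2ΔIE replicates 2 and 3, all low in Hoxb13, apart from the other 3 libraries. Cidec was at 14.5 to 18.6 CPM in those low in Hoxb13 and at 0.675 to 3.25 CPM in the others, whatever the genotype. Lpl was at 16.1 to 30.9 CPM and at 9.06 to 11.2 CPM in the same sets. With this split as a covariate the log2 fold change of Lpl was 0.35 in place of 0.91, and that of Adipoq 3.08 in place of 2.70. Among the libraries low in Hoxb13, both Nsd2ΔIE libraries were above the Nsd2fl/fl library for 9 of the 10 members, all but Cidec, against 39.4% of all genes tested. In the other set, Nsd2ΔIE replicate 1 was above both Nsd2fl/fl libraries for 7 of 10, all but Lep, Lpl and Plin1, against 28.8% of all genes. Each set holds 3 libraries and allows no test.

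**Figure D3:**
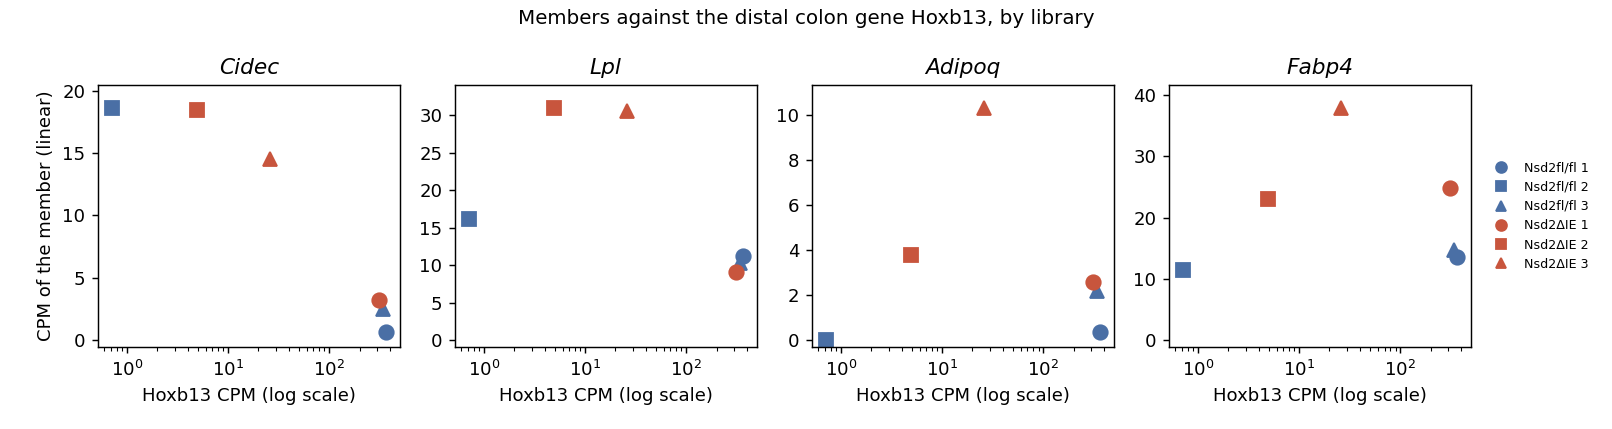
CPM of Cidec, Lpl, Adipoq and Fabp4 (linear axes) against CPM of the distal colon gene Hoxb13 (log axis), with 1 point per library, coloured by genotype. Cidec is high in the 3 libraries with little Hoxb13 in either genotype, while Fabp4 is higher in the Nsd2ΔIE libraries at both ends of the Hoxb13 range.

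Other genes of adipocyte biology had smaller fitted differences at the median. The 9 lists written by function hold 77 genes, of which 72 were tested. At the threshold of the study 12 were higher and 2 lower in Nsd2ΔIE, against 8.05% and 2.21% of all genes tested. The same shares are the background for the counts of each list below. The median log2 fold change of the 72 was 0.13. None passed an adjusted p under 0.05 in edgeR, and DESeq2 called 7 higher, against the 2.47% of all genes given above, and 2 lower (Apln and Vldlr). Many of these genes are also used by epithelium, the bulk of a colon piece.

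Of the adipocyte transcription factors, 0 of 9 tested passed the threshold of the study. Pparg, the master regulator of fat cell formation, had 44.9, 87.3 and 45.5 CPM in Nsd2fl/fl and 53.4, 108 and 75.6 CPM in Nsd2ΔIE, and was highest in replicate 2 of either group. Of the other lipid droplet proteins 0 of 7 passed. Plin2, the perilipin found in most cells with droplets, had 179, 114 and 141 CPM and then 145, 121 and 102 CPM in the same order of libraries, with a log2 fold change of −0.24. The Nsd2fl/fl and Nsd2ΔIE values of Plin2 overlap.

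In lipolysis, 1 of 8 was higher, G0s2, an inhibitor of the triglyceride lipase. It had 3.12, 3.19 and 3.51 CPM in Nsd2fl/fl and 4.92, 7.90 and 9.98 CPM in Nsd2ΔIE (log2 fold change 1.21, SE 0.28, edgeR adjusted p = 0.302). The lipase itself, Pnpla2, had a log2 fold change of −0.04. Triglyceride synthesis had 0 of 8 past the threshold. Fatty acid synthesis had 1 of 9, Thrsp (log2 fold change 1.56), a lipogenic regulator with 1.66 to 2.27 CPM in Nsd2fl/fl and 2.55 to 8.48 CPM in Nsd2ΔIE, while the synthase Fasn was at 0.10.

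In fatty acid uptake, Cd36, a fatty acid transporter, was higher (log2 fold change 0.48) and the lipoprotein receptor Vldlr lower (−0.58) out of 8. Insulin response and glucose uptake had 4 of 8 higher. Among them were Slc2a4, the insulin-regulated glucose transporter of fat and muscle (log2 fold change 1.27), and the caveolar genes Cavin1 (0.58) and Cav1 (0.46), which smooth muscle also uses. Of other secreted products, 3 of 9 were higher, Rarres2 (chemerin), Sfrp5 and Nnat, with log2 fold changes of 0.52, 1.33 and 1.19. Apln, the gene for apelin, was lower, at 4.86, 2.23 and 2.67 CPM against 0.883, 0.530 and 0.410 CPM (log2 fold change −2.42). Of 6 adipokine receptors, Cdh13, which binds adiponectin, and the leptin receptor Lepr were higher (0.75 and 0.43), and the adiponectin receptors Adipor1 and Adipor2 were at −0.18 and −0.13.

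**Figure D4:**
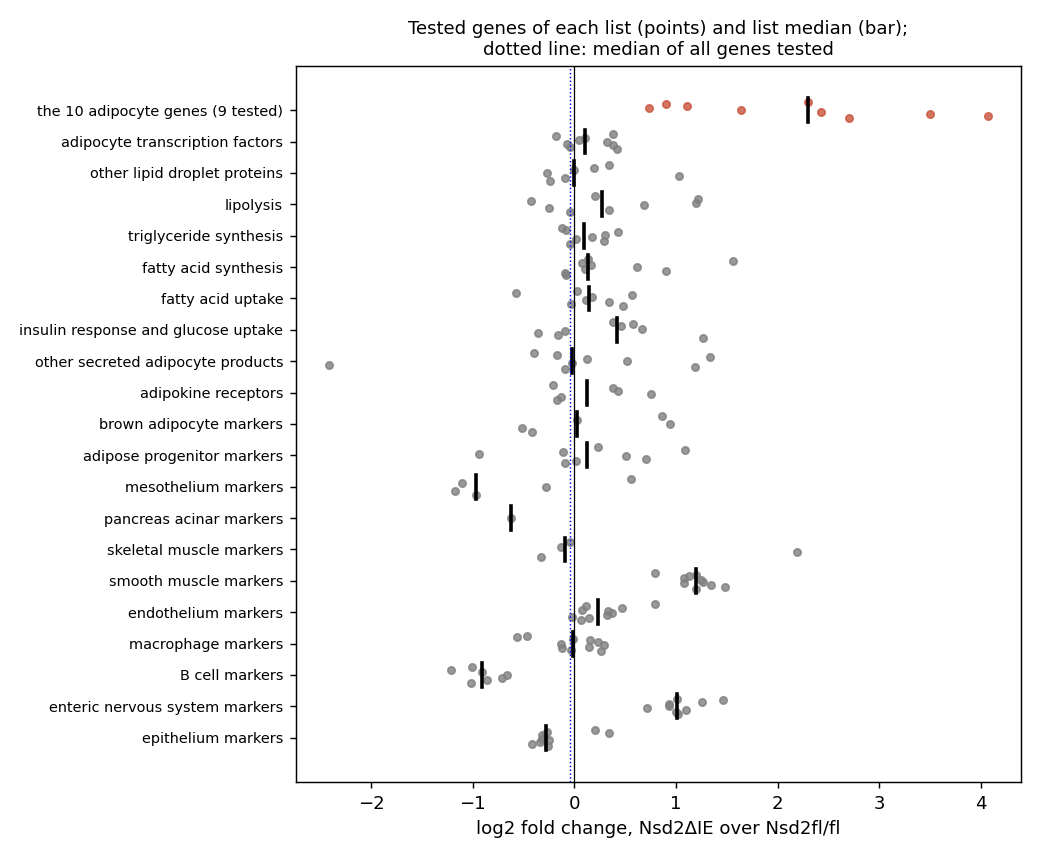
Log2 fold change (Nsd2ΔIE over Nsd2fl/fl, edgeR) of each tested gene, with 1 row per gene list. Points are genes, the short bar is the list median and the dotted line the median of all genes tested (−0.04). The adipocyte genes (median 2.30), smooth muscle markers (1.19) and enteric nervous system markers (1.01) lie to the right, while the lists of adipocyte function have medians from −0.03 to 0.42.

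Markers of smooth muscle and of the enteric nervous system moved with the members. All 10 smooth muscle markers had a positive log2 fold change, with a median of 1.19. At the threshold of the study 7 of these markers were higher, against 8.05% of all genes tested. Their CPM summed to 4106, 1439 and 4145 in Nsd2fl/fl replicates 1 to 3, against 5160, 6802 and 11016 in Nsd2ΔIE. That is the same order of the 6 libraries as for Adipoq, Retn and Car3. All 9 enteric nervous system markers were higher at that threshold, with sums of 47.9 to 78.8 CPM in Nsd2fl/fl and 99.96 to 138 CPM in Nsd2ΔIE. Epithelial markers had 0 of 10 past it and a median of −0.28, with sums of 13452 to 21765 and 12807 to 15232 CPM. Of these 10, 8 had a negative log2 fold change. For 2 of them every Nsd2ΔIE library was below every Nsd2fl/fl library, as for 1190 of all 16347 genes tested. The part of tissue make-up in the adipocyte genes was not tested. After division of each member by the smooth muscle sum of its library, an alternative chosen after seeing the data, 3 of the 10 members (Retn, Cfd and Plin4) had every Nsd2ΔIE library above every Nsd2fl/fl library, against 0.196% of all genes tested so divided. Adipoq, Fabp4 and Car3 then overlapped. The group means of Fabp4, Lpl, Cidec and Lep were then lower in Nsd2ΔIE, where undivided they were higher. For Fabp4, Lpl and Cidec this came from Nsd2fl/fl replicate 2, which has the smallest divisor (1439 CPM). The divided Nsd2ΔIE means of these genes lay above both Nsd2fl/fl replicate 1 and Nsd2fl/fl replicate 3. Lep had 14 counts or fewer in every library.

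Markers of cells that share members or lie next to fat were measured too. Macrophage markers, of cells that also make Fabp4 and Lpl, had 0 of 11 past the threshold and sums of 604 to 816 CPM in Nsd2fl/fl and 680 to 820 CPM in Nsd2ΔIE. Endothelial markers had 2 of 10 higher (Prox1 and Tie1), and their sums were 215 to 262 and 250 to 278 CPM. Of 8 adipose progenitor markers Cd34 was higher and Ly6a lower. Brown adipocyte markers had 0 of 5, and Ucp1, the defining gene of brown fat, was at 0 counts in 5 of the 6 libraries. Mesothelial markers, of the cells that cover the gut and its fat, had 0 of 5, with sums of 3.71 to 12.7 and 5.55 to 6.03 CPM. Of these 5, 4 had a negative log2 fold change, and the median was −0.97.

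Skeletal muscle, in which Plin4 and Car3 are also used, had 1 of 4 markers higher, Ckm, with 6.91, 4.15 and 6.35 CPM in Nsd2fl/fl and 11.5, 32.2 and 35.5 CPM in Nsd2ΔIE. The other 3 markers tested (Acta1, Myh2 and Mylpf) had negative log2 fold changes, and the list median was −0.09. The fast fibre genes Myh4 and Pvalb were not among the genes counted, and Acta1 overlapped between the groups (1.40 to 9.44 and 4.26 to 5.42 CPM). Of the pancreatic acinar markers 1 was tested, Cela1, and it did not pass. B cell markers had 0 of 7, with a median of −0.91.

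The genes whose pattern was most like the members were ranked by Pearson's r with the mean log2 CPM of the tested members, among 2017 genes whose log2 CPM ranged over at least 2. With 6 libraries that fall into 2 genotypes and differ in Hoxb13, this is a description. The closest 12 that are no members were Gm11627 (0.991), Hspb6 (0.988), Nkd2, Elmod1, Glb1l2, Nap1l2, Lmod1 (0.969), Slc35f1, Lrfn1, Kcnn2, Popdc2 and Tekt5 (0.960). Hspb6, a small heat shock protein of muscle, had 11.7, 6.87 and 16.9 CPM in Nsd2fl/fl and 18.9, 27.6 and 38.9 CPM in Nsd2ΔIE. Lmod1, a smooth muscle actin nucleator and 1 of the markers above, had 40.5, 22.5 and 45.0 CPM and then 56.3, 79.9 and 100.4 CPM. Each member was also set against the mean of the other members. The r was 0.908 to 0.993 for Adipoq, Retn, Cfd, Plin1, Plin4, Fabp4 and Car3, 0.519 for Lpl and 0.216 for Cidec.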

How the data were processed

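Total RNA was extracted from colon with TRIzol. The authors deposited read counts per gene symbol and, per library, FPKM values, in which the authors divided counts by gene length and library total. The submitters' processing notes name fastp, HISAT2, HTSeq, R 3.2.0 and mm10, without roles. Strandedness and annotation were not given in the sources used here.

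Counts were tested with edgeR 4.0.16 (R 4.3.3) after filterByExpr, which left 16347 genes, with TMM factors and the two-sided quasi-likelihood test without covariates. Adjustment was by Benjamini and Hochberg over every tested gene. SEs are the size of the log2 fold change over the square root of F. The fit was tested on simulated data. Alternatives were DESeq2 1.42.0, limma 3.58.1 (voom, and log2 FPKM with a pseudocount of 1 or 0.1), other scaling factors, no filter, covariates and leaving out each library. Log2 CPM values used a prior count of 2.

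Members and lists were chosen with earlier results of these data known. Named genes are the 10 members, genes of the lists taken from the 3 of highest CPM and up to 4 of smallest p past the threshold of the study, and the 12 most alike. Pparg and the genes called absent or at 0 were added after their values were seen. Cell lists covered transcription factors to receptors of adipocytes (9 lists) and brown fat, progenitors, mesothelium, pancreas, skeletal and smooth muscle, endothelium, macrophages, B cells, enteric nerves and epithelium. No 2 libraries agreed within sampling noise. The values of 1 listed gene are not reported here, although list counts include it.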

Additional observations from a re-analysis of the deposited data

How the results depend on the processing

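The 9 members tested in the main fit kept a positive log2 fold change in each of the 16 alternative fits. Without the filter, and in some fits with 1 library left out, Lep was tested too. It then entered the counts and medians, of 10 members, while its own log2 fold change is not given. The count of members with an adjusted p under 0.05 was 0 in edgeR and limma and 3 in DESeq2. At the threshold of the study the count was 5, and it ranged from 2 to 7 when 1 library was left out, with 2 without Nsd2ΔIE replicate 3 and 3 without Nsd2fl/fl replicate 1, while 4.06 to 10.3% of all genes passed. The median log2 fold change of 2.30 ranged from 1.27 without Nsd2ΔIE replicate 3 to 3.25 without Nsd2fl/fl replicate 3, and was 1.15 on the log2(FPKM + 1) scale, where the pseudocount shrinks low genes. The 6 members without overlap were 3 after division by the smooth muscle sum, against 0.196% of all genes tested so divided. When 1 library was left out, they ranged from 6 to 8. The share of all genes in those sets was not counted, and with fewer libraries groups separate more easily for any gene. With the replicate number as a replicate block, 8 members passed the threshold of the study, against 8.94% of all genes. Same-numbered libraries deviated from their group means with correlations of 0.501, 0.643 and −0.166. These differ in sign, so whether the numbers pair the libraries is not resolved. Library totals alone in place of TMM moved the median of all genes by 0.127. Depth limits Lep and the low values of Plin1, Retn and Adipoq.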

Other observations

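Genes with a pattern like that of Cidec were looked up after its values were seen, by Pearson's r of log2 CPM over the 6 libraries, as a description. The closest were Mmp7, a secreted metalloproteinase (0.996), Epop (0.994) and Arg1, an arginase (0.988). Car1, a carbonic anhydrase of colon epithelium (0.974), had 188, 7837 and 316 CPM in Nsd2fl/fl replicates 1 to 3 and 723, 8057 and 3799 CPM in Nsd2ΔIE replicates 1 to 3. Tmigd1, an adhesion molecule of epithelium (0.971), had 15.0, 348 and 24.9 CPM and then 35.8, 297 and 157 CPM. As with Cidec, the libraries low in Hoxb13 were the highest for both genes, in either genotype.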
